A study of Homo sapiens with 6 samples.

Results

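The SNARE membrane fusion genes described here are 42 human genes, out of 19775 that a probe set of the array names singly: 35 of the SNARE family, the disassembly enzyme NSF with its 3 adaptors, and 3 proteins that bind syntaxins. SEC22A is counted among the 35, though it was classed here as having no SNARE motif. The 42 genes were picked by symbol, STX4 among them, with earlier results of these data known. They were followed through every probe set whose platform annotation gives the gene as its single symbol. That gave 112 of the 54675 probe sets on the array. A filter on mean intensity kept 97 of the 112, out of 27307 kept on the whole array, and all 42 genes had at least 1 kept probe set, 14 of them exactly 1. The 15 probe sets below the filter belong to 13 genes, and a further 2 probe sets with several symbols, a member among them, were not used.

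The samples are RNA from a human kidney cell line that was transfected with the construct labelled hIMP1 Dmut, with the construct labelled hIMP1 wt, or with empty vector, called mock. IMP1, made by the gene IGF2BP1, is an RNA-binding protein found in cytoplasmic granules. Each of the 3 groups has 2 arrays, numbered 1 and 2, and all 6 cell samples went through a transfection. The labels neither name the cell line nor explain Dmut. They do not say whether replicates were separate cultures, and the p-values below therefore reflect array-to-array scatter that may be purely technical. The fit between the groups has no term for the replicate number, so its scatter also holds any difference between the numbers. Over the kept probe sets, arrays of the same number in different groups correlated at 0.970 to 0.980. The 2 arrays of a group correlated at 0.963 to 0.964.

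SNARE proteins drive the fusion of transport vesicles with their target membranes. A v-SNARE on the vesicle and t-SNAREs on the target, which are a syntaxin and either a SNAP protein or a pair of light chains, zip into a bundle of helices that pulls the membranes together. Each step of traffic has its own set, and NSF with its SNAP adaptors takes the spent bundles apart for another round, while Munc18 proteins hold syntaxins and guide their assembly. In kidney epithelial cells the syntaxins of the cell surface are known for their division between the apical face, which carries STX3, and the basolateral face, which carries STX4.

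The stretch of 250 bases before the most upstream listed start is shown for STX4, VAMP2 and SNAP29, because these were the members with the smallest p-values between the groups. The sequences come from RefSeq in the assembly GRCh38.p14, and they read 5′ to 3′ on the strand of the gene. Capitals mark matches to GGGCGG, the GC box, or to CACGTG, the E-box, on either strand. STX4 lies at chr16:31032845-31033094 on the plus strand, VAMP2 at chr17:8162949-8163198 on the minus strand, and SNAP29 at chr22:20858757-20859006 on the plus strand.
STX4: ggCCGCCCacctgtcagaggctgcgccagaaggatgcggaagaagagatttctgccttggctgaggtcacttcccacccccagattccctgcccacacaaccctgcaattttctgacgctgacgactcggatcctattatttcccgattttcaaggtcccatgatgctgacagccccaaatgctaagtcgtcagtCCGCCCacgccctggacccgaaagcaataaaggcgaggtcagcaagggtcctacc
VAMP2: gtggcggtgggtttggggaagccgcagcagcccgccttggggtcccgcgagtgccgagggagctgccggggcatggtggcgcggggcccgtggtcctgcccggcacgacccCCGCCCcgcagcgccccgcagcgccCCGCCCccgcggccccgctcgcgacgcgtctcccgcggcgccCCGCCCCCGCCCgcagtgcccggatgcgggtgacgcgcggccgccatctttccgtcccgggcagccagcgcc
SNAP29: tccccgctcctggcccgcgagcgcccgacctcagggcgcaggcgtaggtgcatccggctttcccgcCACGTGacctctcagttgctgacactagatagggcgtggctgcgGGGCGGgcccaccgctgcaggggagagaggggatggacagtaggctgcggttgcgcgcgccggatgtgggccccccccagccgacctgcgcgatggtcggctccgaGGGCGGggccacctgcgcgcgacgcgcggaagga

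A GC box began 248 and 55 bases before the start of STX4, at 4 places between 139 and 66 bases before that of VAMP2, and 140 and 34 bases before that of SNAP29, which also had an E-box 184 bases before it. Among the 38 members with an entry (all but STX17, SNAP25, BET1L and USE1), 24 had a GC box in this window, or 63.16%, against 42.19% of the 27305 promoters in the table. The 27305 were not limited to genes with a kept probe set, which all 38 members had. The median GC content was 64.2% in the members' windows and 57.6% in all windows. An E-box was found in 7 members (18.42%, against 6.46% of all), among them SNAP29, STX6, BNIP1 and GOSR2. CCAAT was found in 13 members (34.21%, against 33.03%), the core of the heat shock element, GAANNTTC, in VAMP4 and SEC22B (5.26%, against 5.85%), and TGACGTCA, the cyclic AMP response element, in STX12 and STXBP3 (5.26%, against 1.75%). Both strands were searched, and none of these matches was tested or is known here to be a site in use.

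Values are intensities on a linear scale as deposited, given as replicate 1 and then replicate 2 of a group. Array medians lay between 26.7 and 33.7. The brightest probe set of IGF2BP1 averaged 277 ± 15.2 with hIMP1 Dmut, 276 ± 71.0 with hIMP1 wt and 269 ± 54.0 with mock (SD, n = 2 each), and whether it reads the transfected construct is not known, so it does not check the labels. Differences are on the scale of log2(intensity + 9.04) with their standard error (SE), from a limma fit of all 6 arrays, and a probe set passed when its Benjamini-Hochberg adjusted p over the 27307 probe sets was under 0.05. For a member of median SE, an unadjusted p of 0.05 needs a log2 difference of 0.57. In bulk RNA, fewer cells of a type and less RNA per cell cannot be told apart. Of the markers of kidney epithelium, 5 of 8 were kept, KRT8, KRT18, EPCAM and PAX8 among them, while CDH16, PAX2 and KRT19 were below the filter, and their summed intensity was 2055 to 2191 with hIMP1 Dmut, 2055 to 2282 with hIMP1 wt and 2040 to 2156 with mock. Of other cell types, 2 of 5 blood genes were kept (CD3E and HBB, with PTPRC and CD14 below the filter), 2 of 6 fibroblast genes (COL1A1 and THY1) and 1 of 5 endothelial genes (PECAM1, with CDH5 and VWF below the filter).

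With hIMP1 Dmut against mock, which asks what differs in cells given the Dmut construct, no SNARE gene passed. The calls made in this comparison, 2 of 27307 probe sets or 0.00732%, were both of the chaperone gene HSPA6 (log2 difference 5.45 ± 0.44 and 5.13 ± 0.35), and 0 of 97 member probe sets were called by limma. At an unadjusted p under 0.05 there were 3 member probe sets (3.09%), 1 each of STX4, VAMP2 and SNAP29, against 1.42% of all probe sets. The arrays of the groups did not overlap for 11 member probe sets that were higher with hIMP1 Dmut (11.3%, against 12.6% of all probe sets) and for 10 that were lower (10.3%, against 11%), so both shares lie near the background.

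Among the members, chosen with earlier results of these data known, STX4, the syntaxin that receives vesicles at the basolateral surface, had the smallest p. At its brighter probe set, intensities were 139 and 149 with hIMP1 Dmut, 207 and 160.4 with hIMP1 wt, and 283 and 239 with mock. Both Dmut arrays lay below both wt arrays, and these below both mock arrays. The mean was 144 ± 6.73 with hIMP1 Dmut and 261 ± 31.5 with mock (SD, n = 2 each), a log2 difference of -0.81 ± 0.23 (95% interval -1.33 to -0.30, unadjusted p = 0.00571, limma adjusted p = 1). Split by replicate number it was -0.98 for number 1 and -0.65 for number 2. The dimmer probe set of STX4 read 134 and 141 with hIMP1 Dmut, 164 and 126 with hIMP1 wt, and 154 and 162 with mock, where the Dmut arrays were again below the mock arrays, with a difference of -0.19 ± 0.24.

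VAMP2, a vesicle SNARE that pairs with STX4 in insulin-driven delivery of glucose transporters, was the other surface SNARE with an unadjusted p under 0.05. Its brightest probe set read 68.7 and 78.1 with hIMP1 Dmut, 94.1 and 119 with hIMP1 wt, and 131 and 109 with mock, with both Dmut arrays below the other 4. The log2 difference from mock was -0.65 ± 0.27 (unadjusted p = 0.0372, limma adjusted p = 1), and -0.85 for number 1 and -0.44 for number 2. VAMP2 had no unadjusted p under 0.05 when either mock array or either Dmut array was left out. The other kept probe sets of VAMP2 had the opposite sign, at 0.058 and 0.12, and the mean over its probe sets was -0.16. SNAP23, the SNAP protein that completes this complex, read 997 and 947 with hIMP1 Dmut, 1065 and 957 with hIMP1 wt, and 1099 and 887 with mock, groups that overlap, with a difference of -0.023 ± 0.18.

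SNAP29, a SNAP protein that joins STX17 and VAMP8 when autophagosomes fuse with lysosomes, stood on the higher side. Its brightest probe set read 372 and 385 with hIMP1 Dmut, 252 and 255 with hIMP1 wt, and 272 and 266 with mock. Both Dmut arrays were above the other 4, which lay close together. The mean was 378 ± 9.19 with hIMP1 Dmut and 269 ± 4.73 with mock (SD, n = 2 each), and the log2 difference was 0.48 ± 0.19 (unadjusted p = 0.0324, limma adjusted p = 1), 0.44 for replicate number 1 and 0.52 for number 2. The dimmest of its 3 probe sets gave 0.34 ± 0.30, and the middle one gave 0.026 ± 0.26. SNAP29 had no unadjusted p under 0.05 when any 1 of the 6 arrays was left out, or under median scaling. Over 18 alternatives its difference ranged from 0.28 to 0.50.

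The partners of SNAP29 had smaller or opposite differences at their brightest probe sets. STX17, the autophagosome syntaxin, read 230.3 and 255 with hIMP1 Dmut, 213 and 260.2 with hIMP1 wt, and 206 and 265 with mock at its brightest probe set, where the 3 groups overlap, a difference of 0.052 ± 0.23. Its other 4 probe sets ranged from -0.33 to 0.44. VAMP8, which also serves regulated secretion, read 779.8 and 885 with hIMP1 Dmut, 844 and 1089.9 with hIMP1 wt, and 919 and 1154 with mock, with both Dmut arrays below both mock arrays and a difference of -0.31 ± 0.20 (unadjusted p = 0.158). YKT6, the lipid-anchored SNARE that can take part in the same fusion step, gave -0.064 ± 0.31.

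**Figure D1:**
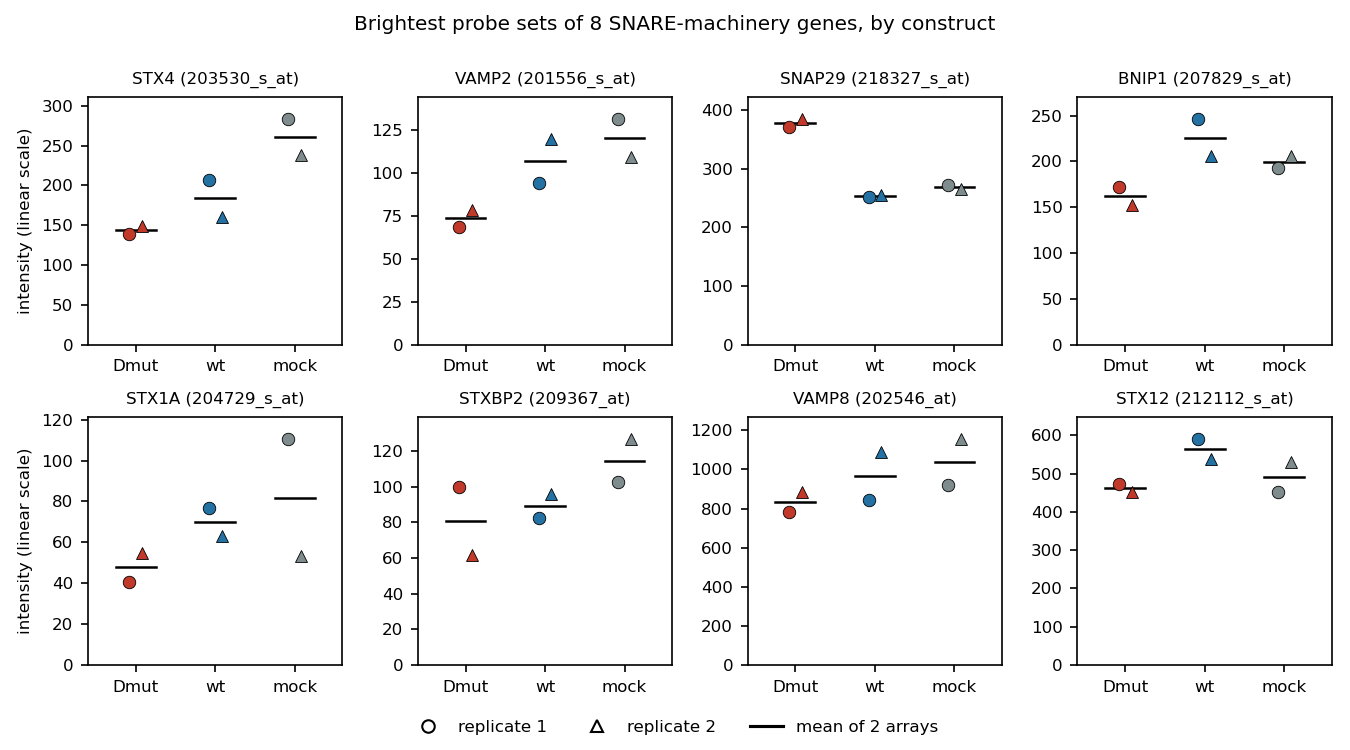
Intensity on a linear axis from 0 of the brightest probe set of 8 SNARE-machinery genes on each of the 6 arrays, with hIMP1 Dmut left, hIMP1 wt in the middle and mock right; circles are replicate 1, triangles replicate 2 and bars the mean of 2 arrays. STX4 and VAMP2 have their lowest and SNAP29 its highest intensities on the 2 Dmut arrays, and in STX1A 1 mock array stands above the other 5 arrays.

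The other members of smallest p in this comparison were STX1A, STXBP2, BNIP1 and USE1. STX1A, the syntaxin of synaptic release, read 40.5 and 54.9 with hIMP1 Dmut, 76.9 and 63.1 with hIMP1 wt, and 110.4 and 53.2 with mock, with mock replicate 1 far above the other 5 arrays, and the difference of -0.61 ± 0.37 was -1.27 for replicate number 1 and 0.039 for number 2. SNAP25, its neuronal partner, read 37.8 and 40.5 with hIMP1 Dmut, 68.2 and 43.2 with hIMP1 wt, and 95.9 and 42.9 with mock at its dimmer kept probe set, again with mock replicate 1 highest, and differed by -0.11 ± 0.39 at its brighter one. Of the 6 neuronal markers, TUBB3 and NEFL were kept and SYP, SYN1, RBFOX3 and NEFM were below the filter; their sum was 3175 to 3290 with hIMP1 Dmut, 3211 to 3874 with hIMP1 wt and 3337 to 3876 with mock, and their part in these values was not tested. STXBP2, or Munc18-2, which serves secretion with STX3, read 99.7 and 61.6 with hIMP1 Dmut, 82.4 and 95.7 with hIMP1 wt, and 103 and 126 with mock, with both Dmut arrays below both mock arrays and a difference of -0.49 ± 0.30, which was -0.038 within the arrays numbered 1.

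BNIP1 and USE1 belong to the ER syntaxin complex that receives vesicles returning from the Golgi, and both had differences below 0. BNIP1 read 172 and 152 with hIMP1 Dmut, 246 and 206 with hIMP1 wt, and 192 and 206 with mock at its brightest probe set, with both Dmut arrays lowest, and -0.29 ± 0.22 against mock. Its dimmest probe set gave -0.29, and its middle one gave -0.0062. USE1 read 237 and 170.5 with hIMP1 Dmut, 185 and 249.5 with hIMP1 wt, and 218 and 301 with mock, groups that overlap, with -0.33 ± 0.27 there and -0.021 at its other probe set. STX18, the syntaxin of that complex, read 404 and 289 with hIMP1 Dmut, 318 and 319 with hIMP1 wt, and 385 and 350.4 with mock and differed by -0.10 ± 0.22.

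Counted over the 42 genes at their brightest probe sets, 15 were higher and 27 lower with hIMP1 Dmut than with mock, and the median log2 difference was -0.064. Over all 12269 genes 48.7% were higher, with a median of -0.0061. Each gene was given 1 role: VAMP3 and VAMP8 were counted with the cell surface, and STX17 and SEC22A with the ER and Golgi. Among the 12 SNAREs of the cell surface 3 were higher and 9 lower (median -0.095), among the 12 of the ER and Golgi 4 and 8 (-0.057), among the 11 of the trans-Golgi network, endosomes and lysosomes 5 and 6 (-0.014), among NSF and its 3 adaptors 1 and 3 (-0.12), and among the 3 syntaxin-binding proteins 2 and 1 (0.13). Scaling each array to a common median turned the total to 9 higher and 33 lower, since it moved the median of all genes to -0.075, and the surface genes to 2 and 10. Without hIMP1 Dmut replicate 2 the total was 23 higher of 42, and with the mean over the probe sets of each gene the median was 0.014. The surface median was -0.32 for replicate number 1 and 0.014 for number 2, and that of the syntaxin-binding genes was -0.29 within number 1 and 0.60 within number 2. Of the 9 R-SNAREs, the class that most vesicle SNAREs belong to, 2 were higher and 7 lower, also under quantile and cyclic loess scaling. Under median scaling 0 were higher, while relative to all genes their median was -0.057, against -0.058 without it. None of these lists was tested.

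The other members, apart from STX2 (0.28 ± 0.24), differed by less than 1 SE at their brightest probe sets: STX3 gave 0.22 ± 0.29, STX6 0.12 ± 0.20, STX12 -0.082 ± 0.19 and VAMP1 -0.20 ± 0.29. VAMP3, the v-SNARE of recycling endosomes, read 1433 and 1239 with hIMP1 Dmut, 1352 and 1559.8 with hIMP1 wt, and 1291 and 1529 with mock and gave -0.076 ± 0.18. VAMP7, a v-SNARE of late endosomes and lysosomes, gave 0.0035 ± 0.19, STX16 of the trans-Golgi network -0.014 ± 0.18, STX10 of the same compartment -0.031 ± 0.21, and SNAP47 0.05 ± 0.17. In the ER and Golgi group, STX5, the syntaxin of the early Golgi, gave 0.08 ± 0.26, BET1 0.06 ± 0.18, BET1L 0.032 ± 0.25, GOSR1 -0.05 ± 0.21, GOSR2 -0.073 ± 0.27, SEC22A -0.073 ± 0.25 and SEC22B -0.046 ± 0.22. Of the late endosome set, STX7 gave -0.068 ± 0.18, STX8 -0.072 ± 0.22 and VTI1B -0.089 ± 0.23, and VAMP4 of the trans-Golgi network gave 0.066 ± 0.21. NSF, the ATPase, gave -0.18 ± 0.20, and its adaptors gave -0.18 ± 0.20 for NAPA, -0.065 ± 0.27 for NAPB and 0.08 ± 0.22 for NAPG. VAMP5, a v-SNARE known from muscle, had a wide error (-0.064 ± 0.45). It read 19.5 and 39.0 with hIMP1 Dmut, 45.5 and 20.1 with hIMP1 wt, and 28.8 and 30.6 with mock, which overlap. STXBP5, the syntaxin-binding tomosyn, also had a wide error (0.26 ± 0.52), with -0.29 for replicate number 1 and 0.81 for number 2. With the replicate number as a block, the SE was 0.35 for STXBP5 and 0.46 for VAMP5. STXBP3, or Munc18c, which binds STX4, gave 0.13 ± 0.23. The third-brightest probe set of VTI1A had the largest difference of any member probe set, 1.22 ± 0.66, and read 100.4 and 56.0 with hIMP1 Dmut, 89.7 and 49.0 with hIMP1 wt, and 6.8 and 73.8 with mock, so mock replicate 1 alone was low. The brightest probe set of VTI1A, a light chain of the trans-Golgi network and endosomes, gave 0.14 ± 0.31.

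**Figure D2:**
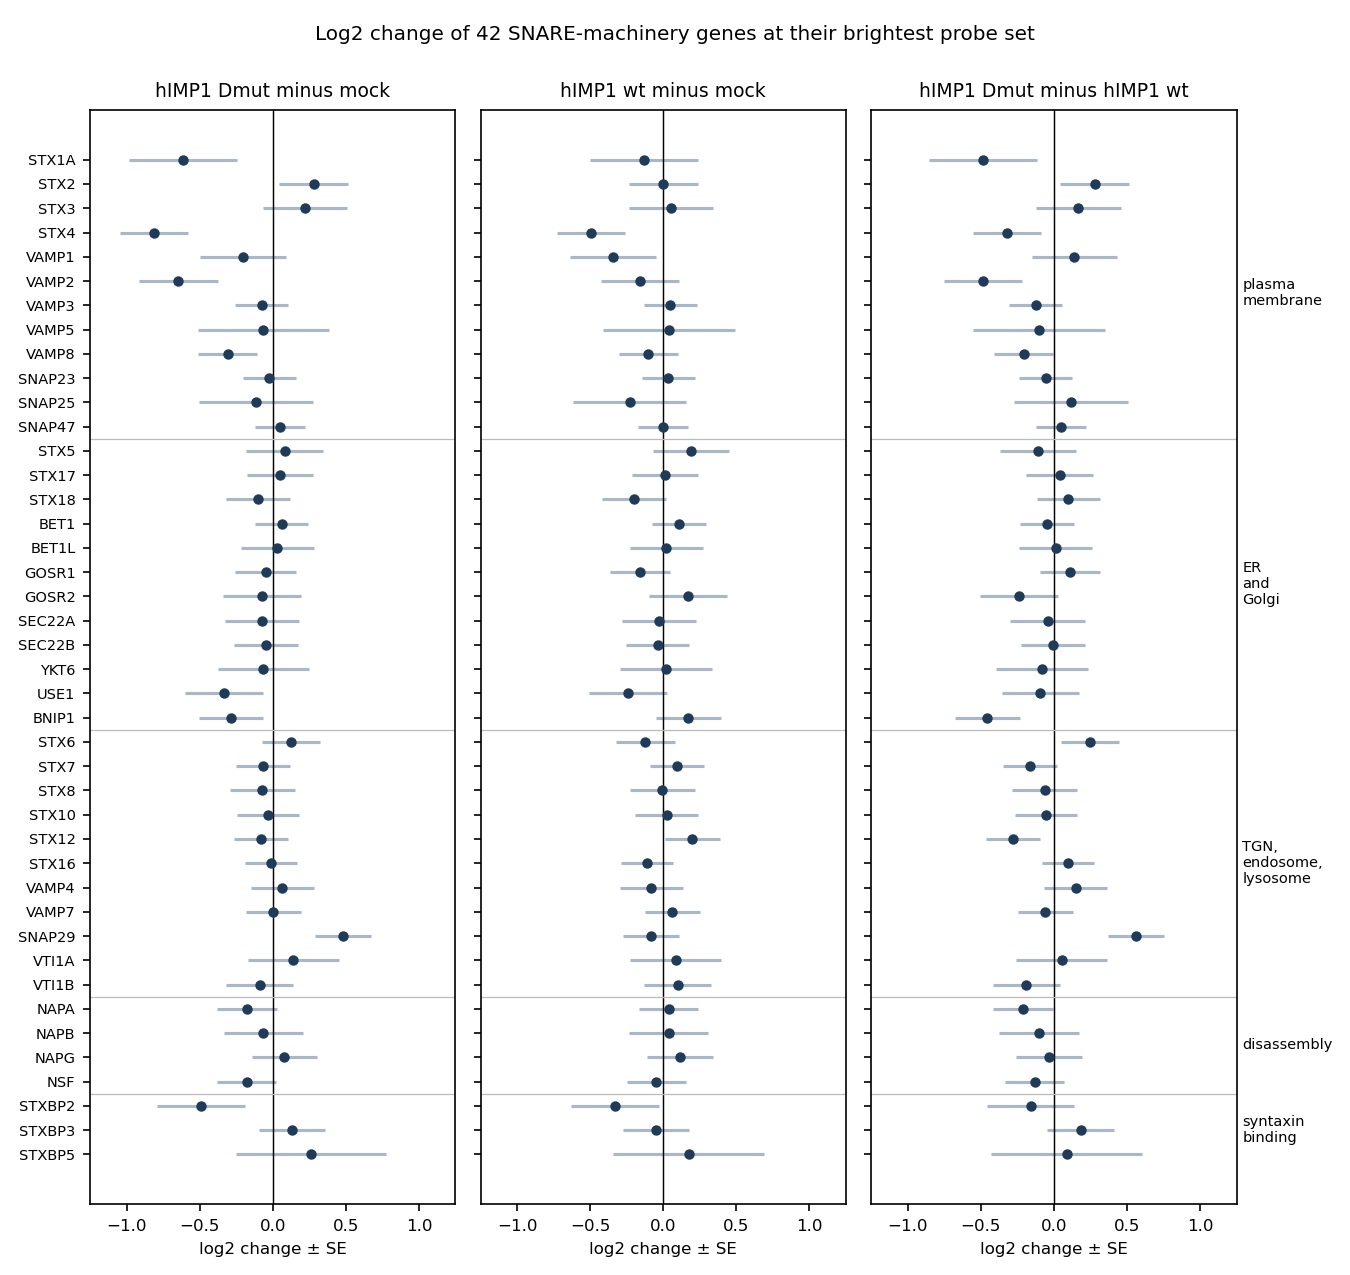
Log2 difference ± SE of the 42 genes at their brightest kept probe set, grouped by role, for hIMP1 Dmut minus mock, hIMP1 wt minus mock and hIMP1 Dmut minus hIMP1 wt. Most genes lie within 1 SE of 0; STX4 (-0.81, -0.49 and -0.32) lies left of 0 in each panel and SNAP29 right of it in the first and last (0.48 and 0.56).

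With hIMP1 wt against mock, which asks the same of the construct labelled as wild type, STX4 again had the smallest p of all members. The wt arrays of its brighter probe set lay below the mock arrays, as given above, with a log2 difference of -0.49 ± 0.23 (95% interval -1.01 to 0.025, unadjusted p = 0.0598, limma adjusted p = 1), and -0.44 for number 1 and -0.55 for number 2. At the dimmer probe set it was -0.13 ± 0.24, with groups that overlap. Both comparisons use the same mock arrays, so a shift of these arrays enters both. Limma called 2 probe sets here, again those of HSPA6 (4.69 ± 0.44 and 4.18 ± 0.35), or 0.00732% of all. It called 0 of 97 member probe sets at the adjusted p and 0 at an unadjusted p under 0.05, which 1.03% of all probe sets met. Groups did not overlap for 7 member probe sets that were higher (7.22%, against 9.72%) and 11 that were lower with hIMP1 wt (11.3%, against 11.6%).

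The next smallest p-values with hIMP1 wt were those of VAMP1, STXBP2 and STX12. VAMP1, a synaptobrevin, read 81.2 and 131 with hIMP1 Dmut, 83.9 and 103 with hIMP1 wt, and 113 and 128 with mock, with both wt arrays below both mock arrays and a difference of -0.34 ± 0.29. STXBP2 was at -0.33 ± 0.30, also without overlap. STX12, a syntaxin of recycling endosomes, read 472 and 453 with hIMP1 Dmut, 589.9 and 539.5 with hIMP1 wt, and 452 and 532 with mock, and the wt arrays were highest, at 0.20 ± 0.19 over mock; its dimmer probe set had the opposite sign, -0.13. Further members named by p were STX18 (-0.20 ± 0.22), USE1 (-0.24 ± 0.27, and 0.076 at its other probe set), BNIP1 (0.17 ± 0.22, and -0.049 at another) and GOSR1, a SNARE within the Golgi stack. GOSR1 read 741 and 678 with hIMP1 Dmut, 724 and 596 with hIMP1 wt, and 853 and 631 with mock, groups that overlap; the difference of -0.16 ± 0.21 had the opposite sign at its second-brightest probe set (0.23) and without mock replicate 1 (0.056).

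Over the 42 genes 23 were higher and 19 lower with hIMP1 wt, and the median was 0.0068, beside 46.5% higher and a median of -0.015 over all genes. By role, 6 surface SNAREs were higher and 6 lower (median -0.051), 7 and 5 of the ER and Golgi (0.015), 6 and 5 of the trans-Golgi network, endosomes and lysosomes (0.023), 3 and 1 of the disassembly genes (0.037) and 1 and 2 of the syntaxin-binding genes (-0.050). Under median scaling, which moved the median of all genes to 0.042, 28 of the 42 were higher. That scaling also turned the medians of the surface and the syntaxin-binding genes above 0, to 0.0069 and 0.0079. The ER and Golgi median was 0.081 within number 1 and -0.031 within number 2, and that of the disassembly genes was -0.046 within number 1 and 0.14 within number 2.

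The comparison of hIMP1 Dmut with hIMP1 wt sets the constructs side by side and tests their difference itself. SNAP29 had the smallest p. Its Dmut arrays, at 372 and 385, lay above its wt arrays, at 252 and 255, and the log2 difference was 0.56 ± 0.19 (95% interval 0.13 to 0.99, unadjusted p = 0.0155, limma adjusted p = 1), with 0.55 for number 1 and 0.58 for number 2. The other probe sets of SNAP29 gave 0.21 ± 0.30 and 0.004 ± 0.26, the second with groups that overlap on nearly equal levels (122 and 108 with hIMP1 Dmut, 130.0 and 100.4 with hIMP1 wt). SNAP29 had no unadjusted p under 0.05 under median scaling, or when either wt array or Dmut replicate 2 was left out. Over 18 alternatives its difference ranged from 0.26 to 0.59. The member probe sets at an unadjusted p under 0.05 numbered 1 (1.03%, against 1.23% of all probe sets). Limma called 0 probe sets in the whole table, 0% of 27307, and 337 had an unadjusted p under 0.05. Groups did not overlap for 11 member probe sets higher with hIMP1 Dmut (11.3%, against 13.1%) and for 14 lower (14.4%, against 8.89%).

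BNIP1 came next: its Dmut arrays read 172 and 152 against 246 and 206 with hIMP1 wt, a difference of -0.46 ± 0.22 (unadjusted p = 0.0662), with -0.24 and -0.067 at its other probe sets. VAMP2 differed by -0.48 ± 0.27, with no overlap at its brightest probe set, and by 0.14 at the next. STX4 differed by -0.32 ± 0.23 (95% interval -0.84 to 0.20), with Dmut below wt but a difference of -0.10 within the arrays numbered 2. STX1A differed by -0.48 ± 0.37, and the arrays of these 2 groups did not overlap. The probe sets of STX12 disagreed, at -0.28 ± 0.19 for the brighter and 0.32 ± 0.21 for the dimmer, each without overlap. On the higher side stood STX6, a syntaxin of the trans-Golgi network, which read 369 and 350.0 with hIMP1 Dmut, 289 and 315 with hIMP1 wt, and 360.0 and 301 with mock and differed by 0.25 ± 0.20, while its second-brightest probe set gave -0.23. STX2, a surface syntaxin also known as epimorphin, read 199 and 184 with hIMP1 Dmut, 135 and 180.0 with hIMP1 wt, and 156 and 155 with mock and differed by 0.28 ± 0.24; at its dimmer probe set the sign was opposite (-0.23).

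Of the 42 genes 16 were higher and 26 lower with hIMP1 Dmut than with hIMP1 wt (median -0.054, beside 0.0098 and 52.4% higher over all genes). NSF and its 3 adaptors were all lower, at -0.035 for NAPG to -0.21 for NAPA, each with an interval that includes 0; their median was 0.076 within number 1 and -0.38 within number 2. The dimmer probe set of NSF gave -0.52 ± 0.29 without overlap, and its signal from a near-identical copy of NSF cannot be told apart from that of NSF. The median over the 42 genes was 0.0080 within number 1 and -0.11 within number 2. By role, 5 surface SNAREs were higher and 7 lower, 4 and 8 of the ER and Golgi, 5 and 6 of the trans-Golgi network, endosomes and lysosomes, and 2 and 1 of the syntaxin-binding genes, whose median of 0.088 turned below 0 under median and quantile scaling. Median scaling moved the median of all genes to -0.11 and the members to 8 higher and 34 lower; relative to all genes the ER and Golgi median was then -0.056, and -0.055 without that scaling.

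Probe sets of the same gene often disagreed. Among the 28 members with at least 2 kept probe sets, all had the same sign in 15 (53.6%) for hIMP1 Dmut minus mock, against 41.6% of the genes on the whole array with at least 2. For hIMP1 wt minus mock the count was 7 (25%, against 39.9%), and for hIMP1 Dmut minus hIMP1 wt 8 (28.6%, against 40.8%). STX4 had 1 sign in all 3 comparisons and SNAP29 in both that involve hIMP1 Dmut, whereas VAMP2 did not. STX6 was split, with -0.42 at its second-brightest and 0.60 at its third-brightest probe set against mock; at that of 0.60 mock replicate 2 stood apart (141 and 61.2 with mock, 158 and 137 with hIMP1 Dmut). GOSR2, which has 9 probe sets, ranged from -0.29 to 0.35.

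**Figure D3:**
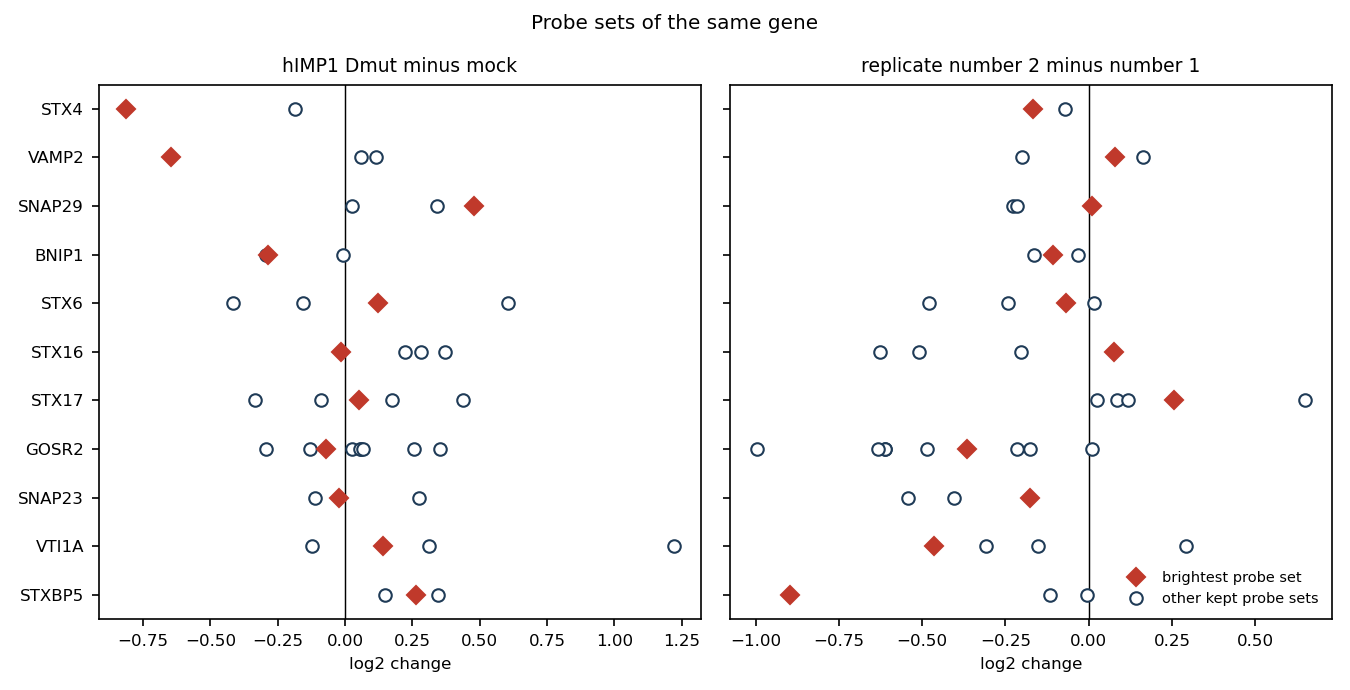
Log2 difference at each kept probe set of 11 genes, for hIMP1 Dmut minus mock (left) and replicate number 2 minus number 1 (right); diamonds are the brightest probe set and open circles the others. The probe sets of STX4 (-0.81 and -0.19) lie on the same side of 0 on the left, those of VAMP2 (-0.65, 0.058 and 0.12) do not, and the 9 of GOSR2 reach -0.995 on the right.

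The replicate number separated more SNARE probe sets than the constructs did, in a comparison with 3 arrays a side instead of 2. In a fit with group and number, limma called 7 of 97 member probe sets lower on the arrays numbered 2 than on those numbered 1 (7.22%, against 2.9% of all probe sets) and 0 higher (0%, against 2.81%). Over both directions the share was 7.22% of member probe sets, against 5.71% of all probe sets. The labels do not say what the number marks. The 7 probe sets read 5 genes: GOSR2 and STX3 at 2 each, and STX16, YKT6 and SNAP23.

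GOSR2, or membrin, a SNARE between ER and Golgi, fell most. Its third-brightest probe set read 94.3, 84.1 and 95.4 on the arrays numbered 2, against 209, 167 and 199 on those numbered 1 (hIMP1 Dmut, hIMP1 wt and mock each time). All 3 arrays numbered 2 lay below all those numbered 1, with a difference of -0.995 ± 0.17 on the log2 scale (adjusted p = 0.00939, limma). Its second-brightest probe set was also lower, at -0.61 ± 0.16 (adjusted p = 0.0416); at its brightest probe set the difference was -0.37 ± 0.16 (adjusted p = 0.196), and 8 of its 9 probe sets were below 0.

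STX3, the apical syntaxin, fell at its brightest probe set, which read 315, 290.3 and 315 on the arrays numbered 2, against 528, 452 and 387 on those numbered 1, a difference of -0.55 ± 0.13 (adjusted p = 0.0358). At the next it stood at -0.75 ± 0.18 (adjusted p = 0.0328), and in both the numbers did not overlap. YKT6 fell at its dimmer probe set (-0.60 ± 0.15, adjusted p = 0.0416), where it read 151, 171 and 141 on the arrays numbered 2, against 254, 228 and 230.2 on those numbered 1. SNAP23 fell at its dimmest probe set (-0.54 ± 0.15, adjusted p = 0.0494), with a smaller difference at its brightest probe set (-0.18 ± 0.11). STX16 fell at its dimmest probe set (-0.63 ± 0.15, adjusted p = 0.037), while its brightest probe set stood at 0.077 ± 0.12. STX3 was thus the only gene of the 5 called at its brightest probe set. At brightest probe sets, 1 of the 42 members was called lower and 0 higher, beside 305 lower and 455 higher of all 12269 genes.

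**Figure D4:**
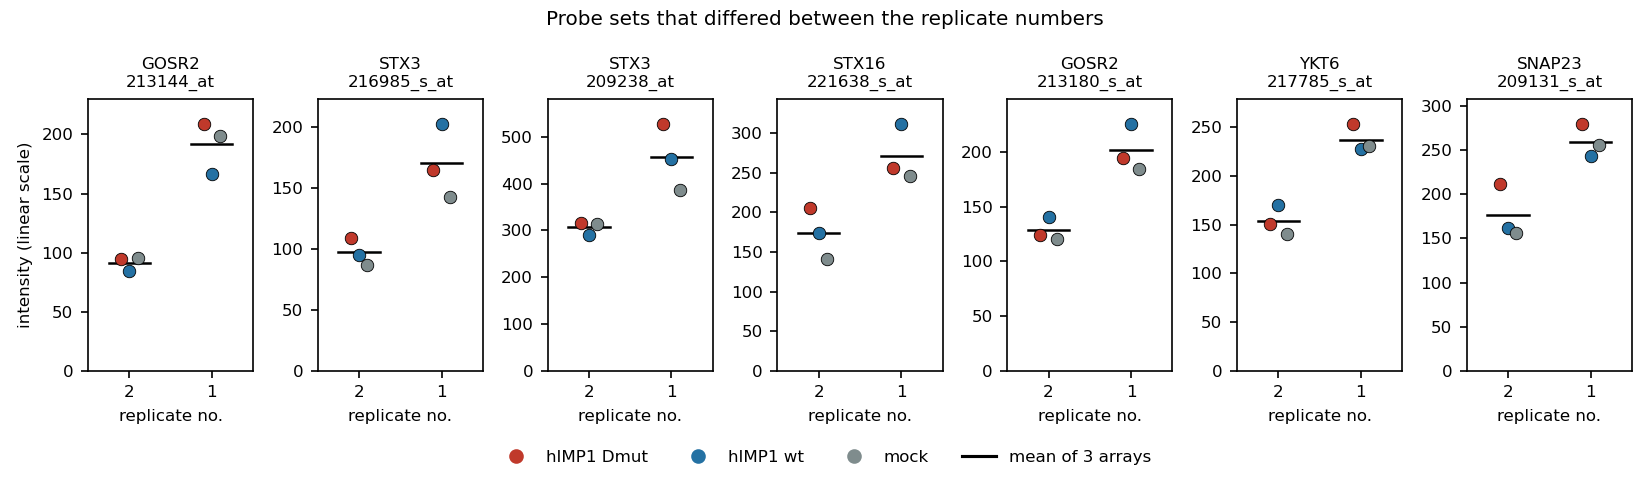
Intensity on a linear axis from 0 at the 7 SNARE probe sets called between the replicate numbers, with number 2 left and number 1 right in each panel; points are arrays coloured by group and bars the mean of 3 arrays. In every panel the 3 arrays numbered 2 lie below the 3 numbered 1, and no group is highest in every panel.

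Of the members not called, STX8, a late endosome SNARE, read 763, 825 and 837 on the arrays numbered 2, against 619.5, 627 and 625 on those numbered 1 and was higher on the arrays numbered 2 in each group, by 0.37 ± 0.11 (adjusted p = 0.0768). STX17 at its fourth-brightest probe set stood at 0.65 ± 0.19 (adjusted p = 0.0708), and STXBP5 at -0.90 ± 0.29 (adjusted p = 0.0903), with number 2 arrays that overlap those numbered 1. STX4, VAMP2 and SNAP29 were at -0.17 ± 0.16, 0.078 ± 0.20 and 0.011 ± 0.13 in this comparison. By role, 4 genes of the ER and Golgi were higher and 8 lower (median -0.22), against 7 and 4 of the trans-Golgi network, endosomes and lysosomes (0.015). Of the 42 genes, 17 stood above 0 and 25 below (median -0.054), and under median scaling, which moved the median of all genes to 0.12, 24 were higher, with a median of 0.049. The number of member probe sets called was 0 when the variance prior had no intensity trend (0% of all probe sets). It was 4 under quantile or median scaling (4.12%, against 5.37% and 5.33%). Under either scaling the share of members called was thus below that of all probe sets. Leaving out an array cannot check that array alone here, because the coefficient of its group takes up the array that remains. Such a fit compares the numbers within the other groups only, and both arrays of a group give the same differences when left out. The median over all genes was then 0.0076 without a Dmut array, 0.0276 without a wt array and 0.0284 without a mock array. Of the 42 genes, 19 were higher without a Dmut array, 15 without a wt array and 15 without a mock array.

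**Figure D5:**
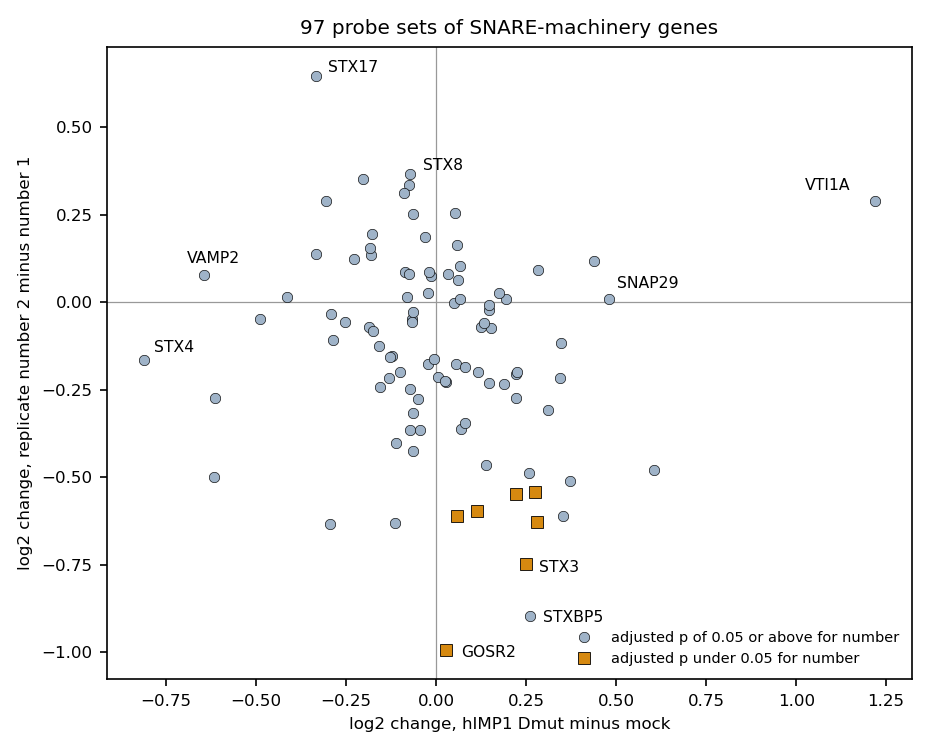
Log2 difference of the 97 kept SNARE probe sets, with hIMP1 Dmut minus mock on the x axis and replicate number 2 minus number 1 on the y axis; squares are the 7 probe sets with an adjusted p under 0.05 for the number. The squares lie between 0.027 and 0.28 on the x axis, and STX4, VAMP2 and SNAP29, far from 0 on the x axis, lie between -0.17 and 0.078 on the y axis.

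The wider fusion machinery was followed through 92 other genes, of which 79 had a kept probe set: the other SNAREs and their regulators, Munc18-like proteins, tethering complexes and the Rab GTPases that direct them. None passed between the groups. Against mock, 38 were higher and 41 lower with hIMP1 Dmut (median -0.0047), and 44 higher and 35 lower with hIMP1 wt (0.025). ESYT1, an extended synaptotagmin that tethers the ER to the plasma membrane, read 487 and 499.8 with hIMP1 Dmut, 379.9 and 439.6 with hIMP1 wt, and 404 and 315 with mock, and at 0.46 ± 0.20 it was the only one of the 79 with an unadjusted p under 0.05 with hIMP1 Dmut (0.0488). Between hIMP1 Dmut and hIMP1 wt 2 of the 79, both Rab GTPases and both lower, had an unadjusted p under 0.05. Of all 12269 genes, 83 were higher and 41 lower at that threshold. The one of smaller p, the early endosome GTPase RAB5C, stood at -0.59 ± 0.24 (unadjusted p = 0.0336, limma), with 423 and 357 on Dmut arrays and 515 and 672 on wt arrays. Between the numbers EXOC8, a subunit of the exocyst that tethers vesicles at the surface, fell by 0.58 on the log2 scale on the arrays numbered 2, and RAB21, an endosomal GTPase, by 0.61 (adjusted p = 0.0169 for both, limma).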

How the data were processed

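Each of the 6 arrays gave 54675 probe set intensities, which the authors deposited on a linear scale. Which software and scaling made them is not given in the sources used here; the mean of each array without its lowest and highest 2% was 150.02, and no intensity was below 0.0400. The number of arrays limits the precision. From the intensities, log2(intensity + 9.04) was computed, 9.04 being the 25th percentile over all arrays, without further scaling. Probe sets with a mean of at least the median, 5.19, were kept, and 62 control probe sets were left out. The annotation gives 1 symbol for 41091 probe sets, several for 1801 and none for 11721. A gene is represented by its brightest kept probe set.

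Groups come from the sample descriptions, and the replicate numbers from the titles. A limma fit (version 3.58.1, R 4.3.3) had a coefficient per group (3 residual degrees of freedom), with a variance prior that follows intensity. The replicate numbers were compared in a fit with group and number. Every test is two-sided, and p-values were adjusted by Benjamini and Hochberg's method across all 27307 kept probe sets. The group fit was tried on simulated data for hIMP1 wt minus mock only, with independent noise and no effect of the number. The fit with group and number was not tried on simulated data. Adjusted p-values written as 1 are rounded.

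Values on every array are given for STX4, for the 8 genes of smallest p in each group comparison, and for members under an unadjusted p of 0.05; those of other members were chosen after their values were seen. Genes of other lists are named only by the smallest p in their list. The members and lists were chosen with earlier results of these data known. Alternatives covered scaling, offset, filter, prior, choice of probe set, the arrays fitted, each array left out, and the replicate number as a block.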

Additional observations from a re-analysis of the deposited data

How the results depend on the processing

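With 2 arrays a group, a member of median error needs a group difference of 0.57 on the log2 scale for an unadjusted p of 0.05. Of 24 named group differences, 22 kept their sign under all alternatives and 0 were called (lowest adjusted p 0.999, limma). Several of these alternatives could not change a sign. The filter, the prior, the block and the fit of only the 4 arrays compared return the same difference at a given probe set. So does leaving out an array of the group not compared. GOSR1, hIMP1 wt minus mock, turned to 0.011 as a mean of its probe sets and ranged from -0.37 to 0.056 with each array left out. STX12, hIMP1 Dmut minus hIMP1 wt, turned to 0.018 as a mean of its probe sets. No cause of these shifts was tested.

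The median over the 42 genes was, for hIMP1 Dmut minus mock, -0.050 under quantile scaling, -0.13 under median scaling, -0.051 under cyclic loess, -0.050 with the offset at the median, -0.048 with the filter at the 75th percentile and 0.014 as a mean of probe sets, and -0.11 (without mock replicate 2) to 0.014 (without hIMP1 Dmut replicate 2) with each array left out. Under median scaling it was 0.063 for hIMP1 wt minus mock, -0.18 for hIMP1 Dmut minus hIMP1 wt and 0.049 for the numbers. With each array left out it was -0.061 to 0.0068 for hIMP1 wt minus mock.

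Calls over all probe sets for hIMP1 wt minus mock were 1 with the offset at the 10th percentile or the filter at the 75th, 0 with only the 4 arrays compared or no intensity trend, and 0 to 3 with each array left out. For hIMP1 Dmut minus mock they were 1 with that filter, 0 without the trend and 0 to 2 with each array left out. Between the numbers 1558 probe sets were called (5.71%), 558 without a filter (1.02%), 0 without the trend and 291 to 5472 with each array left out (1.07% to 20%); member probe sets called were 4 under quantile or median scaling (4.12%), 1 without a filter (0.893%), 0 without the trend and 1 to 27 with each array left out (1.03% to 27.8%). These alternatives for the calls between the numbers were chosen after seeing the data.

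Member probe sets at an unadjusted p under 0.05, with each array left out, numbered 0 to 1 higher and 0 to 1 lower for hIMP1 wt minus mock, 0 to 1 higher and 1 to 3 lower for hIMP1 Dmut minus mock, and 0 to 1 higher for hIMP1 Dmut minus hIMP1 wt. In the same fits 0.846% to 2.18%, 1.44% to 3.72% and 1.23% to 3.32% of all probe sets met that threshold. The higher count was 0 in both Dmut comparisons under median scaling and 2 for hIMP1 Dmut minus hIMP1 wt without the trend. The lower count was 1 for hIMP1 Dmut minus mock with the filter at the 75th percentile, and 1 for hIMP1 Dmut minus hIMP1 wt under median scaling or without a filter.

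Deviations of arrays of the same number correlated at 0.217 (hIMP1 Dmut and hIMP1 wt), 0.200 (hIMP1 Dmut and mock) and 0.464 (hIMP1 wt and mock), but with 2 numbers the arrays share only a number. With the replicate block 0 member probe sets were called; those at an unadjusted p under 0.05 were 1 lower for hIMP1 wt minus mock (STX4), 2 higher (SNAP29 and STX6) and 3 lower (STX4, VAMP2 and VAMP8) for hIMP1 Dmut minus mock, and 1 higher (SNAP29) and 1 lower (BNIP1) for hIMP1 Dmut minus hIMP1 wt. For STX4 in hIMP1 wt minus mock the limma fit with the block gave an unadjusted p = 0.0234 (adjusted p = 1). The block raised the share of all probe sets at that threshold to 2.58%, 4.15% and 3.19%, against 1.03%, 1.42% and 1.23% without it.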
